A study of Homo sapiens with 12 samples.

Results

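The zinc by siRNA interaction asks, gene by gene, whether the transcript response of Caco-2 cells to zinc differs between cells treated with siRNA against MTF1 and cells treated with a negative control siRNA. It was computed as high minus low zinc with MTF1 siRNA, minus the same difference with control siRNA, from all 12 of the 12 arrays of the series and for all 14285 features (genes, or probes that carry no gene symbol) that were detected in at least 1 group, out of 47323 probes. Caco-2 is an established epithelial line from a human colon carcinoma. The 4 groups of 3 arrays were MTF1 siRNA at 150 µM zinc, MTF1 siRNA at 3 µM zinc, control siRNA at 150 µM zinc and control siRNA at 3 µM zinc. These zinc concentrations are called high and low. All cells were transfected, so no group shows untransfected cells. The labels give no genotype beyond the line, and nothing in them says that the 3 arrays of a group came from separate cultures, so p-values measure the spread between these arrays, which may be technical.

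The transcription factor MTF1 carries zinc fingers and binds short metal response elements in promoters when cellular zinc is high. Its best known targets are the metallothioneins, which chelate metal ions through clustered cysteines, and SLC30A1 (ZnT1), which moves zinc out of the cell. In intestinal cells these genes buffer and export zinc taken up from the gut lumen, while heat shock, oxidative stress and immediate early genes respond to zinc through other factors as well.

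The promoters of 4 metal-responsive genes are shown because the results turn on how differently such genes behaved. MT1B had the lowest interaction, MT1X and MT2A are metallothioneins whose interactions did not pass, and SLC30A1 is the classic exporter target. These 4 were chosen after their values were seen, and MT1M, which also passed the test, is named only. Each run holds the 250 bases before the gene start (RefSeq, GRCh38.p14), 5′ to 3′ on the gene's own strand. Capitals mark the core of the metal response element, TGCACNC or TGCGCNC, on either strand.
MT1B (chr16:56651636-56651885, plus strand): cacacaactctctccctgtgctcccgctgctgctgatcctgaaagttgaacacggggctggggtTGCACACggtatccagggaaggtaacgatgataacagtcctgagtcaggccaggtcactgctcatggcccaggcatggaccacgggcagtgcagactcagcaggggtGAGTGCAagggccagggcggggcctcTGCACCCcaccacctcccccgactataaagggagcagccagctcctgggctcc
MT1X (chr16:56682220-56682469, plus strand): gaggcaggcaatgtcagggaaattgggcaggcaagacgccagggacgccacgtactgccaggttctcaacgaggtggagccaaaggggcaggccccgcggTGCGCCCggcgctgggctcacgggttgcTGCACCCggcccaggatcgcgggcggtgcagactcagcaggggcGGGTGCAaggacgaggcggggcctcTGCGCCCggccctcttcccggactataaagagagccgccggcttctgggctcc
MT2A (chr16:56608334-56608583, plus strand): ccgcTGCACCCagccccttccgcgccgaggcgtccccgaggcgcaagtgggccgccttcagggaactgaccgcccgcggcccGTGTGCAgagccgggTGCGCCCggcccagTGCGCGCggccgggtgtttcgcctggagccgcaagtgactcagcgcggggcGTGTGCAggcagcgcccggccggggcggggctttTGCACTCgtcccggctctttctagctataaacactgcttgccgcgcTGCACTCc
SLC30A1 (chr1:211579162-211579411, minus strand): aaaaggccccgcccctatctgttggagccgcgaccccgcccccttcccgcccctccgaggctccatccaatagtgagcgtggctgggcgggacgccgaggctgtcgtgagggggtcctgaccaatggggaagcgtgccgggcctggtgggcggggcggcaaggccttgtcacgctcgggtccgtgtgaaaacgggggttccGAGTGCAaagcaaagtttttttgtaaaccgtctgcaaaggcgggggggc
The MT1B window held 3 matches, the MT1X window 4, the MT2A window 7 and the SLC30A1 window 1. Of 35116 promoter windows of the same length, 24.8% held 1 or more matches, 1.58% held 3 or more and 0.37% held 4 or more. MT1H had 8 matches, SLC30A2 had 3, and none was found for EMP3, MTTP or CPS1 in these letters and this window.

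Between 18191 and 19469 probes were detected per array, and arrays of a group correlated at 0.989 to 0.992 over the tested features. The control siRNA arrays at high zinc had 18969 to 19469 detected probes, and every other array had at most 18961. Their lowest detected signal was 5.14 to 5.18, against 5.18 to 5.24 in the other groups. The part of this difference in the interactions was not tested. The level of a gene is its normalized log2 intensity, and the number of arrays limits its precision. Of 11 colon epithelial markers 9 were measured, with a summed level of 15.41 to 15.74 on all arrays. Of 15 immune and endothelial markers 4 were measured, with a summed level of 9.64 to 9.85 at high zinc and 9.00 to 9.18 at low zinc. The 13 measured enterocyte genes summed to 13.52 to 13.75 at high zinc and 13.98 to 14.17 at low zinc. Of 12 fibroblast and muscle markers 9 were measured. Their summed level was 12.67 to 12.91 at high zinc and 11.38 to 11.54 at low zinc over both siRNAs. Sums were taken on the linear scale, so the brightest genes weigh most. TAGLN alone read 12.12 to 12.44 at high zinc and 10.37 to 10.63 at low zinc. The average rise passed and reached 1.5-fold for 3 of these 9 and 1 of the 4 immune and endothelial markers (3.61% of all features). The immune, enterocyte and fibroblast sums moved with zinc under both siRNAs, which does not show that each list moved as a whole. The part of these markers in the zinc responses was not tested. MTF1 itself read 5.61, 6.25 and 5.31 at high zinc and 6.28, 5.69 and 5.72 at low zinc with MTF1 siRNA, against 6.55, 6.75 and 6.80 at high zinc and 6.56, 6.49 and 6.77 at low zinc with control siRNA. Every MTF1 siRNA array lay below every control array of the same zinc concentration. No test of this separation is given, so it describes these arrays only. The MTF1 probe was above background on all 12 arrays. Its lowest reading with MTF1 siRNA, 5.31, lay close to the lowest detected signal of the MTF1 siRNA arrays (5.18 to 5.24). The MTF1 interaction was -0.26 ± 0.31 (SE; limma, adjusted p = 0.707).

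Few differences between the zinc responses passed the test. The interaction passed for 3 of 14285 features (limma, Benjamini-Hochberg adjusted p under 0.05), which is 0.0210% of those tested: MT1B and MT1M, whose rise with zinc was weaker with MTF1 siRNA (negative interactions, 0.0140%), and EMP3, whose rise was larger (positive, 0.00700%). Unadjusted p-values under 0.05 were found for 2278 features (15.9%), of which 1130 were positive and 1148 negative. With no interaction in any feature the share would be 5%. A feature that did not pass is thus not shown to lack an interaction. The median interaction over all features was -0.02, and its 5% and 95% points were -0.51 and 0.57. The count of 3 depended strongly on the processing: it was 1 with arrays centred on their median or with the replicate block, 101 with a mean-variance trend, 117 with the authors' log2 values and 146 without background correction. MT1B passed in each of these fits.

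**Figure D1:**
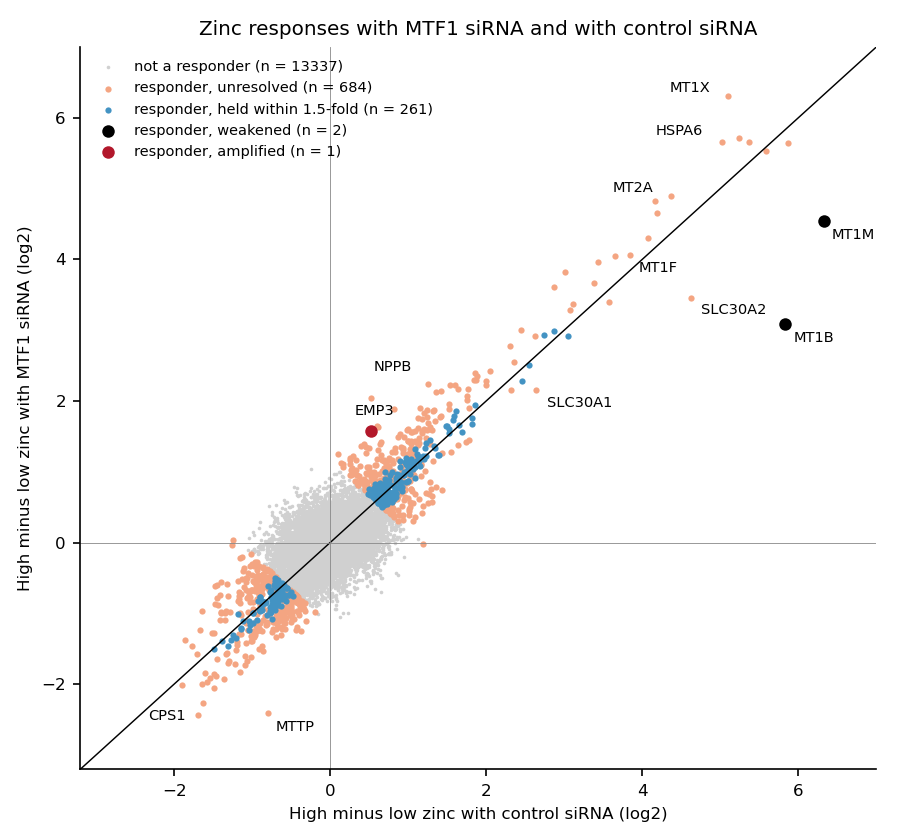
Zinc response (high minus low zinc, log2) of 14285 features with MTF1 siRNA (vertical axis) against that with control siRNA (horizontal axis). Points are features, the diagonal marks equal responses, black points are the 2 weakened responses, the red point is the 1 amplified response and blue points are the 261 held within 1.5-fold. MT1B and MT1M lie far below the diagonal, while most of the strongest rises lie close to it.

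To sort the zinc responses, a responder was defined as a feature whose average response over both siRNAs passed the test and reached 1.5-fold. In this balanced design that average shares no error with the interaction. The average response passed for 3867 features (27.1%). There were 948 responders (6.64% of features), of which 516 rose (3.61%) and 432 fell (3.02%) with zinc. A responder was called weakened or amplified when its interaction passed, held when the 95% interval of its interaction lay within 1.5-fold on either side (0.585 on the log2 scale), and unresolved otherwise. Of the 948 responders 2 were weakened, 1 was amplified, 261 (27.5%) were held and 684 (72.2%) were unresolved. Over all 14285 features the interval lay within 1.5-fold for 5316 (37.2%). The half-width of the interval alone exceeded the margin for 245 responders, so for these the precision could not show a held response. Of the 948 responders 120 were not above background in at least 1 group, as were 15 of the 261 held, and there the size of a response rests in part on the background. An unresolved responder is neither shown to differ nor shown to be kept.

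Of the 12 metallothionein genes listed, 8 were measured and all 8 were responders that rose, against 3.61% of all features. In MT1B and MT1M the response passed as weakened. The other 6 were unresolved, so they are neither shown to differ nor shown to be kept. Probes of these near-identical genes may read each other's transcripts, so their separate values are uncertain to that extent.

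MT1B read 7.77, 7.83 and 7.83 at high zinc and 4.61, 4.77 and 4.78 at low zinc with MTF1 siRNA, against 10.41, 10.72 and 10.91 at high zinc and 4.83, 4.95 and 4.77 at low zinc with control siRNA. At low zinc no array of either siRNA was above background, and at high zinc the 3 MTF1 siRNA arrays lay far below the 3 control arrays. MT1B thus rose at least 6.08-fold with MTF1 siRNA and at least 44.2-fold with control siRNA. The bounds set the high-zinc mean against the lowest detected signal of each low-zinc array, or the probe's own signal where that was higher. The interaction was -2.74 ± 0.17 (SE; 95% interval -3.12 to -2.36; limma, adjusted p = 4.22e-05). At high zinc MT1B was 7.31-fold lower with MTF1 siRNA (adjusted p = 4.88e-07). The interaction passed without any 1 of the 12 arrays, with adjusted p up to 4.45e-04.

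MT1M read 9.15, 9.15 and 8.99 at high zinc and 4.42, 4.80 and 4.41 at low zinc with MTF1 siRNA, against 11.23, 11.25 and 11.76 at high zinc and 4.98, 4.97 and 5.31 at low zinc with control siRNA. The high-zinc groups did not overlap, and at low zinc the probe was above background on none of the MTF1 siRNA arrays and on 1 control array. Its rise with MTF1 siRNA was at least 14.8-fold. The interaction was -1.78 ± 0.23 (SE; limma, adjusted p = 0.0381), and at high zinc the level was 4.98-fold lower with MTF1 siRNA (adjusted p = 7.33e-05). The interaction call held only without MTF1 siRNA low-zinc replicate 3 or control low-zinc replicate 3. When any 1 of the other 10 arrays was left out it was lost (adjusted p between 0.0577 and 0.179). Over all 12 arrays left out in turn the value stayed between -1.89 and -1.60.

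The interactions of the other 6 metallothioneins did not pass and were MT1H -0.06 ± 0.39, MT1F 0.21 ± 0.30, MT1E 0.29 ± 0.35, MT1G 0.47 ± 0.57, MT2A 0.53 ± 0.37 and MT1X 1.21 ± 0.63 (SE; limma, adjusted p between 0.366 and 0.959). The sign of MT1H turned with arrays centred on their median (0.05), and those of MT1E and MT1G turned without background correction (-0.06 and -0.33) and with the authors' log2 values (-0.03 and -0.27). MT1H passed as weakened in these last fits (-0.87 with adjusted p = 0.0318, and -0.83 with adjusted p = 0.0423).

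In MT1F, MT1G and MT1H every MTF1 siRNA array lay below every control array at both zinc concentrations. The share of all features whose arrays lie apart in this way was not determined. This separation, like that given for other genes, therefore describes these arrays only. The arrays of MT2A overlapped between siRNAs at both concentrations, and those of MT1E and MT1X overlapped at low zinc. MTF1 siRNA minus control siRNA was -1.33 at high and -1.80 at low zinc for MT1G, -0.87 and -1.08 for MT1F, and -0.50 and -0.79 for MT1E on the log2 scale. For MT1H it was -1.55 at high zinc (limma, adjusted p = 0.0241) and -1.49 at low zinc (adjusted p = 0.0748). Of the 8 measured metallothioneins MT1B, MT1M and MT1H passed as lower with MTF1 siRNA at high zinc, against 1.23% of all features (1.90% in either direction). None passed at low zinc, against 0.0840% of all features.

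The low-zinc arrays with MTF1 siRNA were widely spread for these genes. MT1X, the member with the largest positive interaction, read 13.65, 13.52 and 13.47 at high zinc and 6.06, 8.43 and 7.23 at low zinc with MTF1 siRNA, against 13.93, 13.70 and 14.01 at high zinc and 8.85, 8.28 and 9.23 at low zinc with control siRNA. The low-zinc groups overlapped, since replicate 2 with MTF1 siRNA lay above 1 control array, and that replicate was also the highest of its group for MT1E, MT1F, MT1G, MT1H and MT2A. The 95% interval of the MT1X interaction ran from -0.16 to 2.58. MT2A stood at 14.1 ± 0.041 with MTF1 siRNA and 14.4 ± 0.324 with control siRNA at high zinc (SD, n = 3), near the top value of 15.08 on each array. Quantile normalization gives each array this same top value, and the part of such a ceiling in the MT2A interaction was not tested. A second MT1H probe, above background on 4 arrays only, had an interaction of -1.71 that passed when all probes were tested (limma, adjusted p = 0.0378). It entered through the control group at high zinc, and its values in the other groups lay near background, so the size of that interaction is set in part by background.

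**Figure D2:**
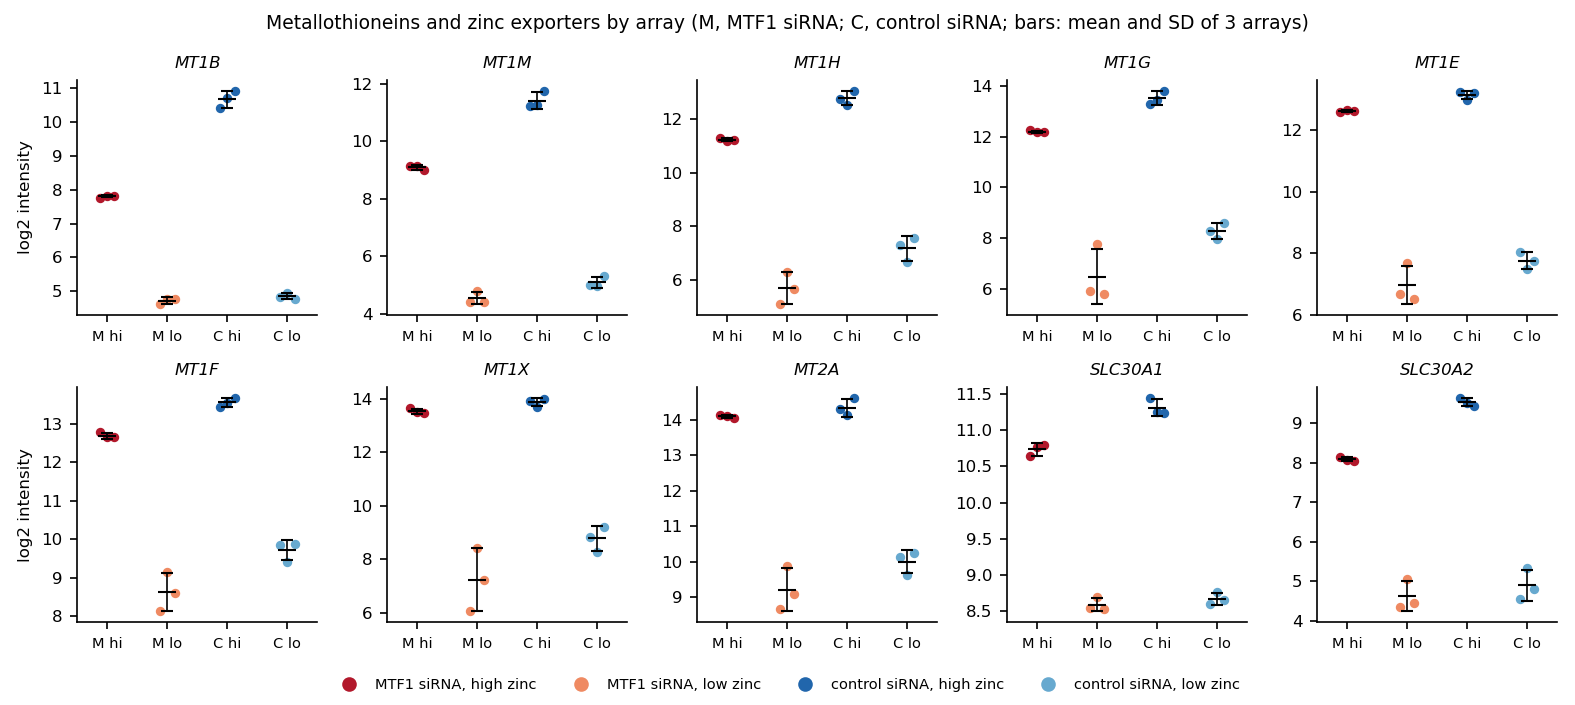
Normalized log2 intensity of 8 metallothioneins and 2 zinc exporters on each of the 12 arrays, by group (M, MTF1 siRNA; C, control siRNA; hi, 150 µM zinc; lo, 3 µM zinc). Points are arrays and bars give the mean and SD of 3 arrays. MT1B and MT1M differ between siRNAs at high zinc and lie near background at low zinc. The arrays shown for MT1G, MT1F and MT1H lie lower with MTF1 siRNA at both concentrations, without a test of this separation. Vertical axes differ between genes and do not start at 0.

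Both zinc exporters that responded had a smaller rise with MTF1 siRNA, but neither interaction passed. Of 10 SLC30 genes 7 were measured and 2 were responders that rose, against 3.61% of all features. SLC30A1 read 10.64, 10.77 and 10.80 at high zinc and 8.54, 8.70 and 8.53 at low zinc with MTF1 siRNA, against 11.45, 11.25 and 11.24 at high zinc and 8.60, 8.76 and 8.65 at low zinc with control siRNA. All MTF1 siRNA arrays lay below all control arrays at high zinc, and the low-zinc groups overlapped. SLC30A1 rose 4.43-fold with MTF1 siRNA and 6.24-fold with control siRNA, with an interaction of -0.49 ± 0.14 (SE; 95% interval -0.80 to -0.19; limma, adjusted p = 0.175). A second SLC30A1 probe gave -0.63 ± 0.20 (adjusted p = 0.200). At high zinc the siRNA difference was -0.57 (adjusted p = 0.0188). The SLC30A1 interaction passed without background correction (-0.48, adjusted p = 0.0415) and with the authors' log2 values (-0.48, adjusted p = 0.0492).

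SLC30A2 (ZnT2), which carries zinc into vesicles, read 8.15, 8.06 and 8.05 at high zinc and 4.36, 5.06 and 4.45 at low zinc with MTF1 siRNA, against 9.64, 9.51 and 9.43 at high zinc and 4.55, 5.34 and 4.81 at low zinc with control siRNA. The high-zinc groups were apart, and the low-zinc values lay at background except for 1 control array. Its interaction was -1.17 ± 0.29 (SE; limma, adjusted p = 0.168), with a rise of at least 7.34-fold under MTF1 siRNA. With values below the lowest detected signal raised to it, an alternative added after seeing the data, the SLC30A2 interaction was -1.39 and passed (adjusted p = 4.07e-04). It also passed without background correction (-0.98, adjusted p = 0.00246) and with the authors' values (-0.99, adjusted p = 0.00546). A second probe, above background on 4 arrays, gave -1.64 (adjusted p = 0.109), a size set in part by background.

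Importers moved in the other direction with zinc. Of 10 measured SLC39 genes 3 were responders, and all fell, against 3.02% of all features. SLC39A10 (ZIP10) read 7.25, 7.47 and 7.77 at high zinc and 8.82, 8.96 and 8.83 at low zinc with MTF1 siRNA, against 6.72, 7.04 and 6.73 at high zinc and 8.38, 9.00 and 8.70 at low zinc with control siRNA. At high zinc the MTF1 siRNA arrays lay above the control arrays. Its response was -1.38 with MTF1 siRNA and -1.87 with control siRNA, and the interaction of 0.49 ± 0.24 (SE) did not pass (limma, adjusted p = 0.341). The SLC39A10 interaction was 0.23 without background correction and 0.25 with the authors' values. SLC39A8 had a response of -1.13 with MTF1 siRNA and -0.58 with control siRNA, with an interaction of -0.55 in the opposite sense (adjusted p = 0.211), and SLC39A5 had -0.85 with MTF1 siRNA and -0.87 with control siRNA.

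EMP3, an epithelial membrane protein of the PMP22 family, was the 1 gene whose zinc response passed as amplified. It read 9.26, 9.32 and 9.05 at high zinc and 7.64, 7.54 and 7.74 at low zinc with MTF1 siRNA, against 8.49, 8.35 and 8.37 at high zinc and 7.91, 7.86 and 7.86 at low zinc with control siRNA. At high zinc every MTF1 siRNA array was above every control array, and at low zinc every one was below. EMP3 rose 2.97-fold with MTF1 siRNA and 1.44-fold with control siRNA, and the interaction was 1.04 ± 0.14 (SE; 95% interval 0.74 to 1.35; limma, adjusted p = 0.0381). The siRNA difference was 0.81 at high zinc (adjusted p = 0.00664) and -0.24 at low zinc (adjusted p = 0.294). The call held only when replicate 3 of the MTF1 siRNA group at low zinc or at high zinc was left out. Omitting any 1 of the other 10 arrays lost it, with adjusted p between 0.0577 and 0.179. Over all 12 arrays left out in turn the value lay between 0.99 and 1.12.

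Next by p-value was a probe without a gene symbol, ILMN_1699323, with an interaction of -1.04 (limma, adjusted p = 0.0759). The next named genes all had an adjusted p of 0.106 and did not pass. NPPB, the precursor of a natriuretic peptide, had a zinc response of 2.25 with MTF1 siRNA and 1.25 with control siRNA. It read 9.00, 8.94 and 9.06 at high zinc and 6.63, 6.65 and 6.98 at low zinc with MTF1 siRNA, against 8.30, 8.12 and 8.33 at high zinc and 6.85, 7.14 and 7.01 at low zinc with control siRNA. S100A3, a calcium- and zinc-binding S100 protein, lay at background at low zinc and was at least 1.98-fold higher at high zinc with MTF1 siRNA and at least 1.15-fold higher with control siRNA. Both genes were higher on all 3 MTF1 siRNA arrays than on all 3 control arrays at high zinc. These genes, like EMP3 and MTTP, were named for their small p-values, so such separation is in part set by that choice.

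MTTP, the transfer protein that loads lipid onto APOB in the enterocyte, read 4.75, 4.97 and 5.18 at high zinc and 7.60, 7.21 and 7.30 at low zinc with MTF1 siRNA, against 5.84, 5.98 and 6.62 at high zinc and 6.71, 7.10 and 7.02 at low zinc with control siRNA. It was not above background on any high-zinc array with MTF1 siRNA, which all lay below the control arrays. The fall was at least 4.45-fold with MTF1 siRNA and 1.74-fold with control siRNA, with an interaction of -1.60 ± 0.28 (SE) whose size is set in part by background. The MTTP interaction was -0.61 without background correction and -0.66 with the authors' values.

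In 2 of these genes the responses ran in opposite directions. POLR3K, a subunit of RNA polymerase III, had a response of 0.41 with MTF1 siRNA and -0.53 with control siRNA, and both passed in their own comparison (limma, adjusted p = 0.0253 and 0.00694), as did 15.7% of all features with MTF1 siRNA and 18.0% with control siRNA. SELENOK, a selenoprotein of the endoplasmic reticulum, had 0.63 with MTF1 siRNA and -0.20 with control siRNA. MCM2, a subunit of the replicative helicase, had 0.82 with MTF1 siRNA and 0.15 with control siRNA, and its low-zinc level was lower with MTF1 siRNA (-0.59, adjusted p = 0.0252). SSPOP was above background only at low zinc with control siRNA. POLR3K, NPPB, SELENOK, MCM2 and MTTP passed with a mean-variance trend (adjusted p between 0.00745 and 0.0190), without background correction and with the authors' values.

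**Figure D3:**
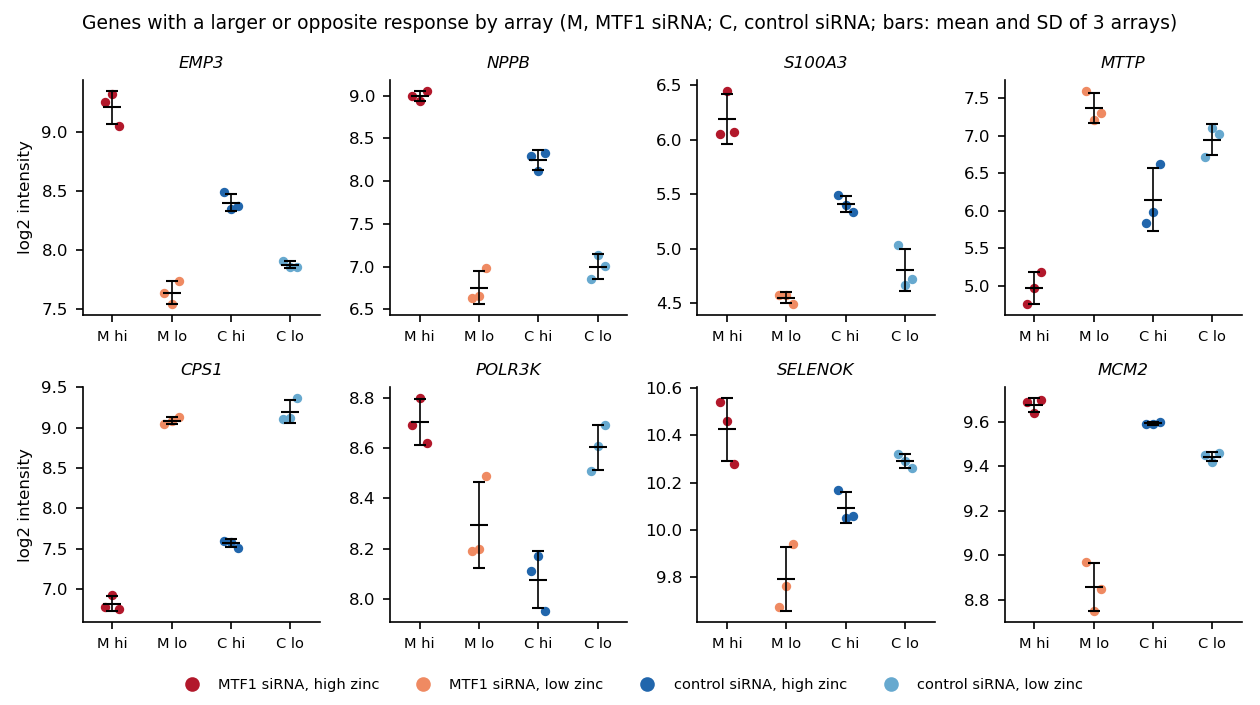
Normalized log2 intensity of 8 genes with a larger or opposite zinc response under MTF1 siRNA, on each of the 12 arrays (labels as for the metallothioneins). Points are arrays and bars give the mean and SD of 3 arrays. EMP3, NPPB and S100A3 are higher with MTF1 siRNA at high zinc, MTTP and CPS1 are lower there, and POLR3K and SELENOK run in opposite directions with the 2 siRNAs. Vertical axes differ between genes and do not start at 0.

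Among the largest responses that were held, signalling, chaperone and cytoskeletal genes stood beside 2 structural RNAs. SERPINE2, a secreted protease inhibitor, read 10.21, 10.11 and 10.19 at high zinc and 7.36, 7.33 and 7.09 at low zinc with MTF1 siRNA, against 10.27, 10.28 and 10.11 at high zinc and 7.03, 7.33 and 7.17 at low zinc with control siRNA. The groups overlapped at both concentrations, and SERPINE2 rose 7.53-fold with MTF1 siRNA and 8.26-fold with control siRNA. Its interaction was -0.13 with a 95% interval of -0.47 to 0.20. DDIT4, an inhibitor of mTORC1, rose by 1.76 with MTF1 siRNA and 1.82 with control siRNA (interval of the interaction -0.39 to 0.27). ADM, a vasodilator peptide, rose by 1.94 with MTF1 siRNA and 1.86 with control siRNA (interval -0.26 to 0.41).

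The prostaglandin transporter SLCO2A1 had the interaction closest to 0 of the 12 strongest held responses, at 0.02 ± 0.16 (SE). It read 8.95, 8.95 and 8.89 at high zinc and 7.51, 7.22 and 7.05 at low zinc with MTF1 siRNA, against 8.83, 8.87 and 8.76 at high zinc and 7.18, 7.16 and 7.16 at low zinc with control siRNA. Of the other strong held responses, HSPA1A, CCN2 and CSRP1 had interactions of -0.17, -0.15 and -0.13, and ANXA1, RMRP, HSPA1B and TAGLN had 0.15, 0.19, 0.20 and 0.25. RNA28SN5 had -0.03. RMRP, the RNA of RNase MRP, lay at background in both low-zinc groups, and its rise was at least 5.97-fold with MTF1 siRNA and at least 4.53-fold with control siRNA. HSPA1A was lower with MTF1 siRNA at high zinc (-0.49, adjusted p = 0.0390), while its difference at low zinc was -0.32 (adjusted p = 0.219). HSPA1A and HSPA1B are nearly identical in sequence, so their probes cannot be taken as separate. A second TAGLN probe had an interaction of 0.84 (limma, adjusted p = 0.109), so the probes of TAGLN disagree.

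The held call of RMRP, RNA28SN5, TAGLN and ANXA1 was near the margin. RMRP left it with a mean-variance trend (outer bound 0.71), with dim values raised to the lowest detected signal (0.65) and without MTF1 siRNA low-zinc replicate 3, MTF1 siRNA high-zinc replicate 1, control low-zinc replicate 1 or control high-zinc replicate 3 (0.59 to 0.61). RNA28SN5 and ANXA1 left it with arrays centred on their median (0.67 and 0.62), as did HSPA1B (0.63). RNA28SN5 also left it when high-zinc replicate 2 or low-zinc replicate 1 with MTF1 siRNA, or high-zinc replicate 3 or low-zinc replicate 1 or 2 with control siRNA, was omitted (0.59 to 0.63). ANXA1 left it without MTF1 siRNA low-zinc replicate 1 or 2 or high-zinc replicate 2 and without control low-zinc replicate 1 or high-zinc replicate 2 or 3 (0.585 to 0.62), and TAGLN without MTF1 siRNA low-zinc replicate 2 or 3 or high-zinc replicate 1 or 3 and without control low-zinc replicate 2 (0.59 to 0.61).

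**Figure D4:**
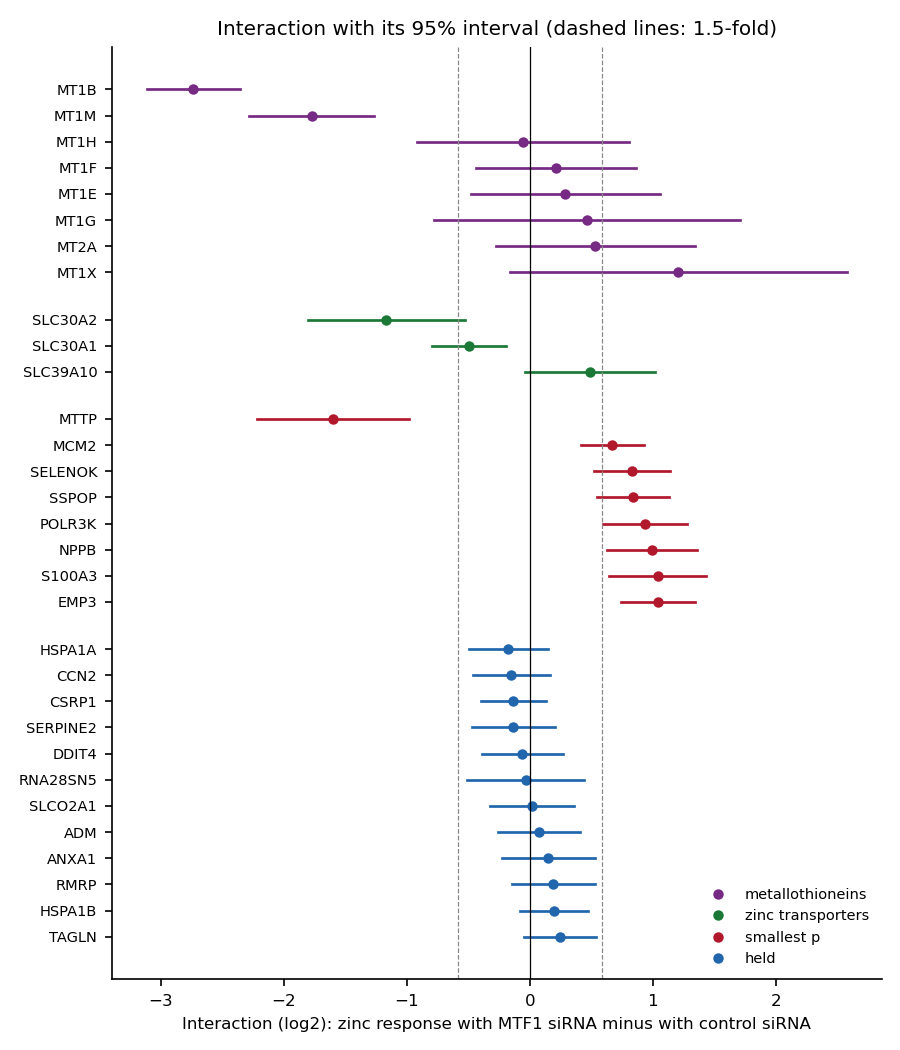
Interaction (zinc response with MTF1 siRNA minus that with control siRNA, log2) with its 95% interval for metallothioneins, zinc transporters, the genes of smallest p-value and the 12 strongest held responses. Points are estimates from 12 arrays, bars are the intervals of the fit and dashed lines mark 1.5-fold. The intervals of MT1X and MT1G are the widest, and those of MT1B and MT1M lie wholly below the lower dashed line.

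Responders as a whole had the larger zinc response under MTF1 siRNA more often than the smaller. The response was larger in size with MTF1 siRNA for 600 of 948 responders (63.3%), against 48.1% of all features. The share was 66.5% among rises and 59.5% among falls. It was 58.3% among the 676 responders under 2-fold and 75.7% among the 272 of 2-fold or more, where 140 of 178 rises and 66 of 94 falls were larger. For those 272 the median size of the response was 1.43 with MTF1 siRNA and 1.23 with control siRNA. Split by zinc concentration, the median shift in the direction of the response was 0.20 at high zinc and -0.01 at low zinc. The median extra response over all 948 was 0.12, below the median SE of 0.21 of a single interaction, so the shares describe directions and not single genes.

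The share was 64.1% among the 676 responders detected on all 12 arrays. Among all responders it ran from 58.0% without control high-zinc replicate 1 to 64.5% without MTF1 siRNA low-zinc replicate 2. For responders of 2-fold or more it ran from 71.2% to 77.3% over the arrays left out in turn. With 1 array left out the groups are unequal, so the average response then shares error with the interaction. The share among all responders was 58.0% to 62.4% without a control array and 62.8% to 64.5% without an MTF1 siRNA array. These ranges are thus not free of the choice of responders. These summaries were chosen after seeing the data and carry no test, since features of the same 12 arrays are not independent.

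Immediate early genes are transcription factors and regulators switched on soon after a stimulus. Of 25 measured 16 were responders that rose, against 3.61% of all features. Of these 14 had a larger and 2 a smaller rise under MTF1 siRNA, against 66.5% larger among all rises, and 8 were held, against 27.5% of all responders. The list's median extra response was 0.24, against 0.12 over all responders, 0.13 over all rises and 0.25 over rises of 2-fold or more. Of those rises of 2-fold or more 78.7% were larger, so the list is not set apart from strong rises. The AP-1 subunit JUN rose by 2.14 with MTF1 siRNA and 1.42 with control siRNA, with an interaction of 0.72 ± 0.18 (SE; limma, adjusted p = 0.168). HBEGF, a growth factor of the EGF family, rose by 2.23 with MTF1 siRNA and 1.61 with control siRNA (0.62 ± 0.14, adjusted p = 0.161). For both, the siRNA difference was smaller at high zinc (0.23 for JUN and 0.13 for HBEGF) than at low zinc (-0.49 each). FOS had an interaction of 0.29 and FOSB of 0.42, while DUSP1, ZFP36, KLF4, KLF6 and CCN1 were held. No member passed the interaction test.

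Of 25 measured heat shock genes 9 were responders that rose, against 3.61% of all features. Of these 6 had a larger and 3 a smaller rise under MTF1 siRNA, against 66.5% larger among all rises. HSPA1A, HSPA1B, HSPA4L and HSPH1 were held, against 27.5% of all responders, and the other 5 were unresolved. HSPA6, an inducible HSP70, read 10.67, 10.61 and 10.71 at high zinc and 5.17, 5.13 and 4.70 at low zinc with MTF1 siRNA, against 10.17, 10.24 and 10.26 at high zinc and 4.85, 5.42 and 5.35 at low zinc with control siRNA. The high-zinc groups did not overlap, and the low-zinc values lay at background except on 2 control arrays. Its interaction was 0.64 ± 0.22 (SE; limma, adjusted p = 0.223), and a second probe gave -0.12. Low-zinc values at or near background set part of the size of both. HSPA4, which was no responder on average, had the lowest interaction of the list (-0.86 ± 0.23, SE; limma, adjusted p = 0.172). Its zinc response was 0.04 with MTF1 siRNA and 0.91 with control siRNA. The HSPA4 interaction passed with a mean-variance trend (limma, adjusted p = 0.0474), without background correction and with the authors' values.

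In the ATF4 and unfolded protein response list 10 of 26 measured genes were responders, all rises, against 3.61% of all features. Of these 6 were held, among them DDIT4, TRIB3 and ASNS, against 27.5% of all responders. DDIT3, a pro-apoptotic factor, rose by 1.34 with MTF1 siRNA and 0.82 with control siRNA (interaction 0.51, adjusted p = 0.308). SESN2, a stress-induced inhibitor of mTORC1 that was no responder on average, had a response of 1.03 with MTF1 siRNA and -0.25 with control siRNA, the largest interaction of the list (1.28 ± 0.27, SE; limma, adjusted p = 0.154). NRF2 targets, the antioxidant genes, had 8 responders among 22 measured, all rises, against 3.61% of all features. Of these 4 were larger and 4 smaller, against 66.5% larger among all rises, and 6 were held, against 27.5% of all responders. HMOX1, GCLM, TXNRD1 and SRXN1 were held with interactions between -0.08 and 0.23. Of 24 measured hypoxia genes 7 were responders, all rises, against 3.61% of all features, and 4 were held, against 27.5% of all responders.

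Small structured RNAs had 13 responders among 15 measured, all rises, against 3.61% of all features. Of these 11 were larger with MTF1 siRNA, against 66.5% of all rises and 78.7% of rises of 2-fold or more. Of the 13 responders 1 was held, against 27.5% of all responders. RPPH1, the RNA of RNase P, rose by 3.82 with MTF1 siRNA and 3.01 with control siRNA (0.81 ± 0.26, SE; limma, adjusted p = 0.202). The U3 copies SNORD3A, SNORD3C and SNORD3D had interactions of 0.41, 0.47 and 0.23, and their probes may read each other. RNU4-1 and RNU11 had negative interactions (-0.32 each).

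Among 14 measured genes of drug and steroid metabolism 6 were responders, all of which fell, against 3.02% of all features. All 6 had the larger fall with MTF1 siRNA, against 59.5% of all falling responders and 70.2% of falls of 2-fold or more. Their median extra response was 0.46, against 0.11 over all falls and 0.18 over falls of 2-fold or more. None of the 6 was held or passed the interaction test. The other metabolic lists had few responders, which leaned either way. The 4 responders of fatty acid synthesis, all falls, had 1 larger and 3 smaller, the 1 responder of fatty acid oxidation was smaller, and the 4 of amino acid metabolism and the urea cycle had 3 larger and 1 smaller. SULT2A1, a steroid sulfotransferase, had -2.05 with MTF1 siRNA and -1.50 with control siRNA, and the retinaldehyde oxidase ALDH1A1 had -0.97 with MTF1 siRNA and -0.41 with control siRNA. The glutathione transferase GSTA2 had -2.01 with MTF1 siRNA and -1.90 with control siRNA, an interaction of -0.11. Further GSTA2 probes, above background on all 12 arrays, gave interactions of -0.42 and -0.49 (limma, adjusted p = 0.357 and 0.520). HSD17B2, which inactivates oestradiol and testosterone, had an interaction of -0.36. The lowest adjusted p of the list was 0.168 (ALDH1A1, limma).

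CPS1, which starts the urea cycle, read 6.78, 6.93 and 6.75 at high zinc and 9.05, 9.08 and 9.13 at low zinc with MTF1 siRNA, against 7.60, 7.59 and 7.51 at high zinc and 9.11, 9.12 and 9.37 at low zinc with control siRNA. At high zinc all MTF1 siRNA arrays were lower, and at low zinc only replicate 3 with MTF1 siRNA reached the range of the control arrays. The interaction was -0.63 ± 0.14 (SE; limma, adjusted p = 0.161), with a siRNA difference of -0.75 at high zinc (adjusted p = 0.00875). The cholesterol exporter ABCA1 had a response of -1.93 with MTF1 siRNA and -1.36 with control siRNA (interaction -0.57, adjusted p = 0.169).

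Of 13 measured enterocyte genes 7 were responders that fell and 1 a responder that rose, against 3.02% and 3.61% of all features. Of these 5 had a larger and 3 a smaller response under MTF1 siRNA, against 63.3% larger among all responders. APOB, the lipoprotein scaffold that MTTP loads, fell by 1.61 with MTF1 siRNA and by 1.02 with control siRNA (interaction -0.60 ± 0.13, SE; limma, adjusted p = 0.161). The chloride exchanger SLC26A3 was held, with -1.38 under each siRNA, but at high zinc its probe was above background on none of the MTF1 siRNA arrays and on 1 control array. The retinol carrier RBP2 leaned the other way, with -1.23 with MTF1 siRNA and -1.67 with control siRNA. The other strong falls SERPINF2, SLC23A3, SGPP2, RHBDL3 and CXCL12 had interactions between -0.42 and -0.24, and ACP3 had 0.13 (adjusted p between 0.220 and 0.850). Further CXCL12 probes gave interactions of -0.44 and -0.07. At high zinc with MTF1 siRNA the probes of SLC23A3 and ACP3 were not above background. No member of the mitosis, DNA replication, RNA interference or housekeeping lists was a responder.

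**Figure D5:**
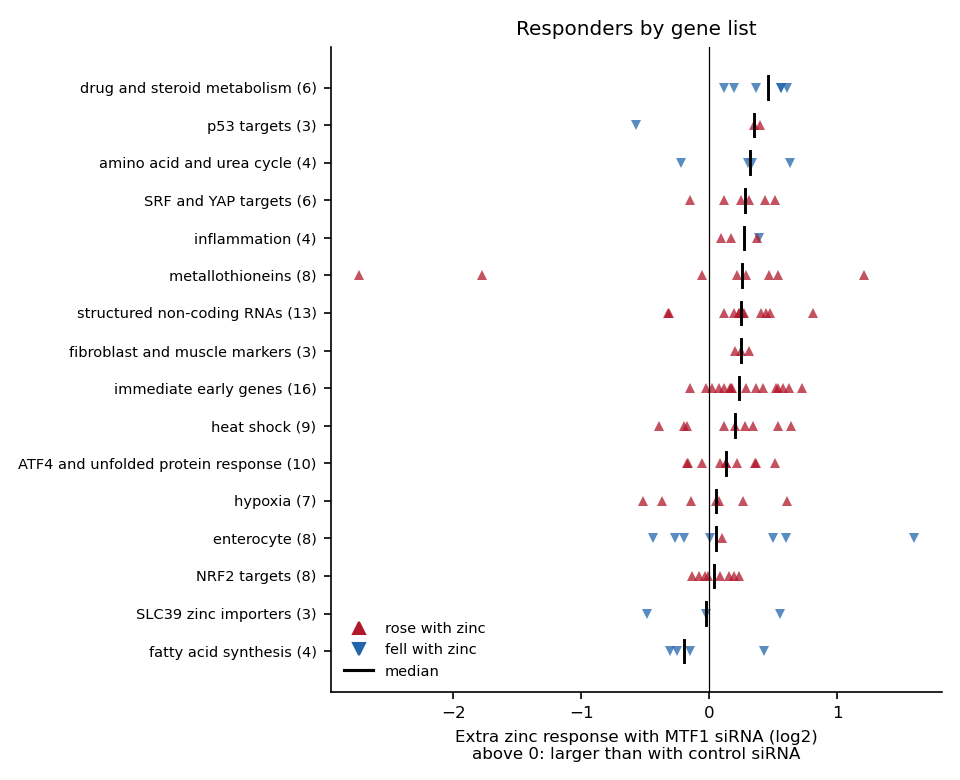
Extra zinc response with MTF1 siRNA (log2; the interaction turned so that values above 0 mean a larger response than with control siRNA) for responders in 16 gene lists with 3 or more of them. Triangles are genes that rose or fell with zinc, black bars are list medians and the number of responders stands beside each name. MT1B and MT1M are the points farthest to the left, and all 6 genes of drug and steroid metabolism lie above 0.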

How the data were processed

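Total RNA of Caco-2 cells was hybridised to 12 Illumina HT-12 arrays, and sample titles gave 4 groups of 3. A ZNF658 knockdown is named in the series' design text, whereas the title and all sample labels name MTF1, which was followed. ZNF658 was not above background on any array. The deposited table held unnormalized probe intensities on a linear scale, per the file headers, and, also per the file headers, detection p-values. The deposited series matrix held the authors' log2 values of the same arrays, used as an alternative. Intensities were background-corrected, raised by an offset of 16, quantile normalized and brought to log2 with neqc (limma 3.58.1 under R 4.3.3). Probes were kept when some group had all 3 arrays at a detection p-value under 0.05 (17413 of 47323). A gene was its brightest entering probe (14285 features, 10584 with a gene symbol updated through the platform annotation). Groups were fitted with lmFit and eBayes, and p-values are two-sided and adjusted by Benjamini-Hochberg over all features, with 0.05 as the threshold.

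Named genes are MTF1, the metallothioneins, SLC30A1, SLC30A2, SLC39A10, the genes past the interaction threshold (with the 10 of smallest p, as fewer than 5 passed), the 12 strongest held responses and the 12 strongest rises and falls. Further members of the 30 gene lists are examples chosen after their values were seen. The members, lists and rules were chosen with earlier results of these data known. The alternatives were other background, scaling, filter, probe and variance settings, the replicate block, and leaving out single arrays. The fit was tested on simulated data.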

Additional observations from a re-analysis of the deposited data

Results flagged for a closer look

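In 3 genes the zinc response differed between the siRNAs by the test of the difference itself. MT1B had an interaction of -2.74, with a zinc response of 3.09 with MTF1 siRNA and 5.83 with control siRNA on the log2 scale, both of them bounded by background at low zinc. MT1M had an interaction of -1.78, with 4.55 with MTF1 siRNA and 6.32 with control siRNA, and was likewise at or near background at low zinc. EMP3 had an interaction of 1.04, with 1.57 with MTF1 siRNA and 0.53 with control siRNA, and was above background on all 12 arrays. Their causes were not tested.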

How the results depend on the processing

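The average zinc response passed for 2744 to 4551 features over all alternatives, and the 12 strongest rises and 12 strongest falls kept their direction and call under each that gave them a value. The count of interactions did not keep its size. It was 146 without background correction (6 weakened, 18 amplified), 117 with the authors' log2 values (6 weakened, 16 amplified), 101 with a mean-variance trend and robust eBayes (3 weakened, 15 amplified), 4 with all entering probes or with dim values raised to the lowest detected signal, and 3 with array weights. It was 1 with arrays centred on their median, with no filter on dim probes and with the replicate block (each 1 weakened, 0 amplified). With the stricter filter it was 1 (0 weakened, 1 amplified), because MT1B and MT1M do not enter it. Leaving out each array in turn gave 1 to 9 interactions (9 without MTF1 siRNA low-zinc replicate 3), 1 to 2 weakened, 0 to 3 amplified, 213 to 252 held responses and a share of larger responses of 58.0% to 64.5% among responders. With 1 array left out the groups were unequal, so that share was not free of the choice of responders. On all 12 arrays it was 70.0% without background correction and 70.2% with the authors' values. Held responses numbered 1698 with no minimum size of the zinc response and 727 with a 2-fold margin. The sign of the interaction turned for MT1E without background correction (-0.055) and with the authors' values (-0.029), for MT1G in the same fits (-0.33 and -0.27), for MT1H with arrays centred on their median (0.054), without MTF1 siRNA low-zinc replicate 2 (0.25), control low-zinc replicate 2 (0.19) or control high-zinc replicate 3 (0.09), and for MT1F without MTF1 siRNA low-zinc replicate 1 (-0.033). With 1 array left out, the interactions of several genes that did not pass moved by over 1.5 times: MT1F from -0.033 (without MTF1 siRNA low-zinc replicate 1) to 0.472, MT1H from -0.351 (replicate 1) to 0.245, MT2A from 0.260 (replicate 1) to 0.870 and MT1X from 0.617 (replicate 1) to 1.81, each highest without MTF1 siRNA low-zinc replicate 2. The MT1G interaction ran from 0.125 (without MTF1 siRNA low-zinc replicate 3) to 1.10 and the MT1E interaction from 0.069 (replicate 3) to 0.649, both highest without replicate 2 of that group. The MTF1 interaction ran from -0.527 to -0.058 without MTF1 siRNA high-zinc replicates 2 and 3. With array weights MT1G was 0.115 and MT1E 0.096. The cause of these shifts was not tested. With the replicate block the MT1B interaction passed (-2.74, adjusted p = 2.10e-04) and MT1M and EMP3 did not (adjusted p = 0.140 each, limma). Replicate numbers do not pair the arrays: same-numbered arrays correlated at -0.10 to 0.14 in their deviations, with 1 of 18 pairs over 0.1, and 5 of 12 arrays correlated best with their own number. With 3 arrays a group the median half-width of an interval was 0.43 on the log2 scale, which limits what an interaction can show.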

Other observations

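With a mean-variance trend and robust eBayes, 101 features passed the interaction test, and all 101 also passed without background correction and with the authors' log2 values. Of these 101, 78 were positive and 23 negative, and 56 had a response above 0 with MTF1 siRNA and below 0 with control siRNA. In that fit 83 of the 101 were not responders: their average response did not pass or fell short of the minimum size. The 101 features were chosen after their values were seen. The 71 positive ones that were not responders had a median zinc response of 0.27 with MTF1 siRNA and -0.52 with control siRNA. Their median siRNA difference was 0.45 at high zinc and -0.31 at low zinc. After SELENOK, the named genes of smallest adjusted p among them were ATP6V1F, a subunit of the vacuolar proton pump, and DYNLRB1, a dynein light chain. ATP6V1F had a response of 0.49 with MTF1 siRNA and -0.35 with control siRNA, and DYNLRB1 had 0.37 with MTF1 siRNA and -0.57 with control siRNA (limma with trend, adjusted p = 0.00859 each). The number that passed in this fit ran from 9 without MTF1 siRNA high-zinc replicate 1 to 460 without MTF1 siRNA low-zinc replicate 3.

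Of the 15 amplified responses of that fit 6 were rises and 9 were falls. Besides EMP3 and NPPB, the named genes of smallest adjusted p were FGB, a fibrinogen chain, and AFP, alpha-fetoprotein. FGB had a response of -1.20 with MTF1 siRNA and -0.43 with control siRNA, and AFP had -1.22 with MTF1 siRNA and -0.58 with control siRNA. MYL7, a myosin light chain of heart muscle, had a response of 2.04 with MTF1 siRNA and 0.52 with control siRNA. In the fit without the trend these 3 did not pass (limma, adjusted p between 0.106 and 0.154).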
